A study of Mus musculus with 4 samples.

Results

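The transcription factor genes *Prrx1*, *Prrx2*, *Hand1*, *Hand2*, *Osr1*, *Pitx1*, *Isl1*, *Alx1*, *Meis1* and *Meis2* were followed through the cell types of the caudal mouse embryo, as factors of the lateral plate mesoderm and of the limb field. They were taken from the count matrix by their gene symbols, and all 10 were found among its 31055 genes. The data were scRNA-seq counts from E8.5 C57BL/6 embryos from *Grhl3*+/- intercrosses, in 4 libraries: 2 from WT and 2 from *Grhl3*-null embryos. The *Grhl3*-null embryos are constitutive nulls, and *Grhl3* encodes a grainyhead-like factor of the surface ectoderm that is needed for closure of the caudal neural tube. Caudal cells were pooled by genotype, from 5 embryos for WT and 3 for *Grhl3*-null, and each pool was loaded in 2 reactions. Each comparison of genotypes below therefore sets 2 pools side by side, and its p-values hold the spread between reactions, not between embryos. Heterozygous embryos were not among the libraries.

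The lateral plate is the sheet of mesoderm lateral to the somites and the intermediate mesoderm. It splits into a somatic layer, which lies under the ectoderm and forms the body wall and the limb buds, and a splanchnic layer, which covers the gut and expresses *Foxf1*. *Prrx1* and *Prrx2* are paired-related homeobox genes of limb and body wall mesenchyme, and *Alx1* is a homeobox gene related to them. *Hand1* and *Hand2* encode basic helix-loop-helix (bHLH) factors of lateral mesoderm, heart and extraembryonic mesoderm, and *Hand2* sets the posterior side of the limb field. *Pitx1* is a homeobox gene of the hindlimb field that acts upstream of *Tbx4*, and *Isl1* is a LIM homeobox gene needed to start the hindlimb. *Osr1* encodes a zinc finger factor of intermediate and lateral mesoderm. *Meis1* and *Meis2* are TALE homeobox genes whose products bind DNA with Pbx and Hox proteins, in the proximal limb and in many other tissues.

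The files held 24239 cells, of which 20198 passed the study's limits of 3000 or more genes and 7500 or more UMIs per cell, with mitochondrial transcripts making 7% or less. A UMI is a molecular tag that counts 1 captured transcript. The kept cells of a library held from 209833527 to 226723903 UMIs in all, from 33391 to 38070 UMIs per cell at the median, and from 85765 to 104408 UMIs of the 10 genes. Of 20162 barcodes of kept cells, 36 occurred in more than 1 library. *Grhl3* stood at 34.2 and 26.98 CPM in the WT libraries and 0.237 and 0.368 CPM in the *Grhl3*-null libraries in the surface ectoderm-like class, where CPM (counts per 1000000) relates a gene's UMIs to all UMIs of a class within 1 library. Clustering with the 10 genes left out of the features gave 16 clusters, named from marker lists that the study picked on these libraries and from which the 10 genes had been removed. The suffix "-like" marks such a name. In 4 of these clusters and in the unnamed cluster 11, together 5795 cells, the best lists were mesenchymal: Mesenchyme 1-like, a cluster 10 of the same name with a median of 16270.0 UMIs per cell, Mesenchyme 2-like and Intermediate mesoderm-like. Cluster 11 had as leading genes *Tbx4*, *Tbx20*, *Capn6*, *Phlda2* and *Spin2c*, and its lists of Mesenchyme 1 and Mesenchyme 2 scored too close to name it. *Cdx4*, a homeobox gene of the caudal embryo, stood at 326 and 344 against 267 and 269 CPM in the Mesenchyme 1-like class, and *Foxf1* at 207 and 226 against 180.2 and 178 CPM.

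Numbers of cells differed between the genotypes by class and by sex. Cells were called male or female from *Xist* and 4 Y-linked genes, and the sexes of a pool come from different embryos. The WT libraries held 3488 and 3263 female and 1259 and 1206 male cells, and the *Grhl3*-null libraries 1821 and 1700 female and 2278 and 2300 male cells. With 3 *Grhl3*-null embryos in the pool, at least 1 sex came from a single embryo. The Pre-somitic mesoderm-like class had 504 and 486 WT cells, of which 496 and 479 were female, and 4 and 5 *Grhl3*-null cells. It was too small in *Grhl3*-null for a comparison, as was the Primordial germ cells-like class.

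The positions of the genes are those of mm10. *Prrx1* spans chr1:163245119-163313710 on the minus strand and *Prrx2* chr2:30834972-30881251 on the plus strand. *Hand1* spans chr11:57828705-57832818 (minus) and *Hand2* chr8:57320983-57324633 (plus). *Pitx1*, at chr13:55825051-55836192, and *Isl1*, at chr13:116298281-116309689, share a chromosome and the minus strand. *Osr1* lies at chr12:9570116-9581500 (plus), *Alx1* at chr10:102998707-103030215 (minus), *Meis1* at chr11:18879817-19018985 (minus) and *Meis2* at chr2:115863064-116065839 (minus). An antisense gene, *Gm47071*, overlaps *Pitx1*, and its counts were few (WT 479 and 573 UMIs, *Grhl3*-null 343 and 309) beside those of *Pitx1*. *Gm26523* overlaps *Prrx1* on the same strand, and reads of the overlap could be counted for neither or either gene.

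RefSeq promoters on GRCm38.p6, from 250 bases before to 50 after the gene start, were at hand for 6 of the 10 genes. Their gene start is the one of that table: it lies 10395 bases inside the span given above for *Prrx2* and 1220 bases inside that for *Meis2*, and within 60 bases of the start of the span for the other 4. Those of *Prrx1* and *Hand2* are shown because they hold the homeodomain core, with that of *Prrx2*, the paralogue of *Prrx1*, and they are printed 5′ to 3′ on the strand of the gene, with capitals for the homeodomain core TAATTA.
Prrx1, chr1:163313601-163313900, minus strand: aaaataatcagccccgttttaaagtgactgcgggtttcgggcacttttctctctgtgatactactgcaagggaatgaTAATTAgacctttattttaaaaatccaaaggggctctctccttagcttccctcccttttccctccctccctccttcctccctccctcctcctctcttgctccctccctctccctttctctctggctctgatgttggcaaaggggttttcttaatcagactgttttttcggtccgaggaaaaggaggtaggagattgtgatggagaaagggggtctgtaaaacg
Prrx2, chr2:30845117-30845416, plus strand: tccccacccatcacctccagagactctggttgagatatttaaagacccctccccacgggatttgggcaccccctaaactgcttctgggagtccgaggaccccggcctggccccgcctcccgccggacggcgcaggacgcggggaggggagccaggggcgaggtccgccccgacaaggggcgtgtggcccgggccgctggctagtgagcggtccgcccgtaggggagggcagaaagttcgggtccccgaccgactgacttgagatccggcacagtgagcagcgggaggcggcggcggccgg
Hand2, chr8:57320733-57321032, plus strand: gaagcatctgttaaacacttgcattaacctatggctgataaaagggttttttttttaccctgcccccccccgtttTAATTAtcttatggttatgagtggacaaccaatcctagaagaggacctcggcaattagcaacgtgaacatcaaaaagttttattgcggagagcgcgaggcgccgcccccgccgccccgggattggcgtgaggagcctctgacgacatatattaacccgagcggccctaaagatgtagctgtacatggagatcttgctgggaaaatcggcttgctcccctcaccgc
The core TAATTA occurred in the promoters of *Prrx1* and *Hand2*, in none of *Prrx2*, *Isl1*, *Meis1* and *Meis2*, and in 5.29% of the 32851 promoters of the table. The letters AACNNGTT of the core that Grhl factors bind were in 0 of the 6 promoters and in 4.20% of all. Searches covered both strands, and AACNNGTT, TAATTA and CANNTG each read the same on both. The E-box CANNTG was in the promoters of *Hand2*, *Isl1* and *Meis1* and in 72.3% of all, the GATA motif AGATAA in those of *Hand2* and *Isl1* and in 11.2% of all, and the TALE motif TGACAG in 0 of the 6 and in 19.2% of all. No motif searched contains another. These are matches of letters within 300 bases and say nothing of binding.

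In WT, most UMIs of 7 of the 10 genes came from the mesenchymal classes. The mean share of a gene's UMIs found there was 89.3% for *Hand2*, 89.3% for *Pitx1*, 83.8% for *Prrx1*, 75.97% for *Alx1*, 74.9% for *Hand1*, 58.3% for *Isl1* and 57.7% for *Osr1*. It was 39.2% for *Prrx2*, 37.8% for *Meis1* and 33.6% for *Meis2*. The heat map of mean levels by class shows the broad reach of the *Meis* genes beside the other members. Levels of different genes are not set against each other here, since a 3′ tag count does not give levels per length.

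**Figure D1:**
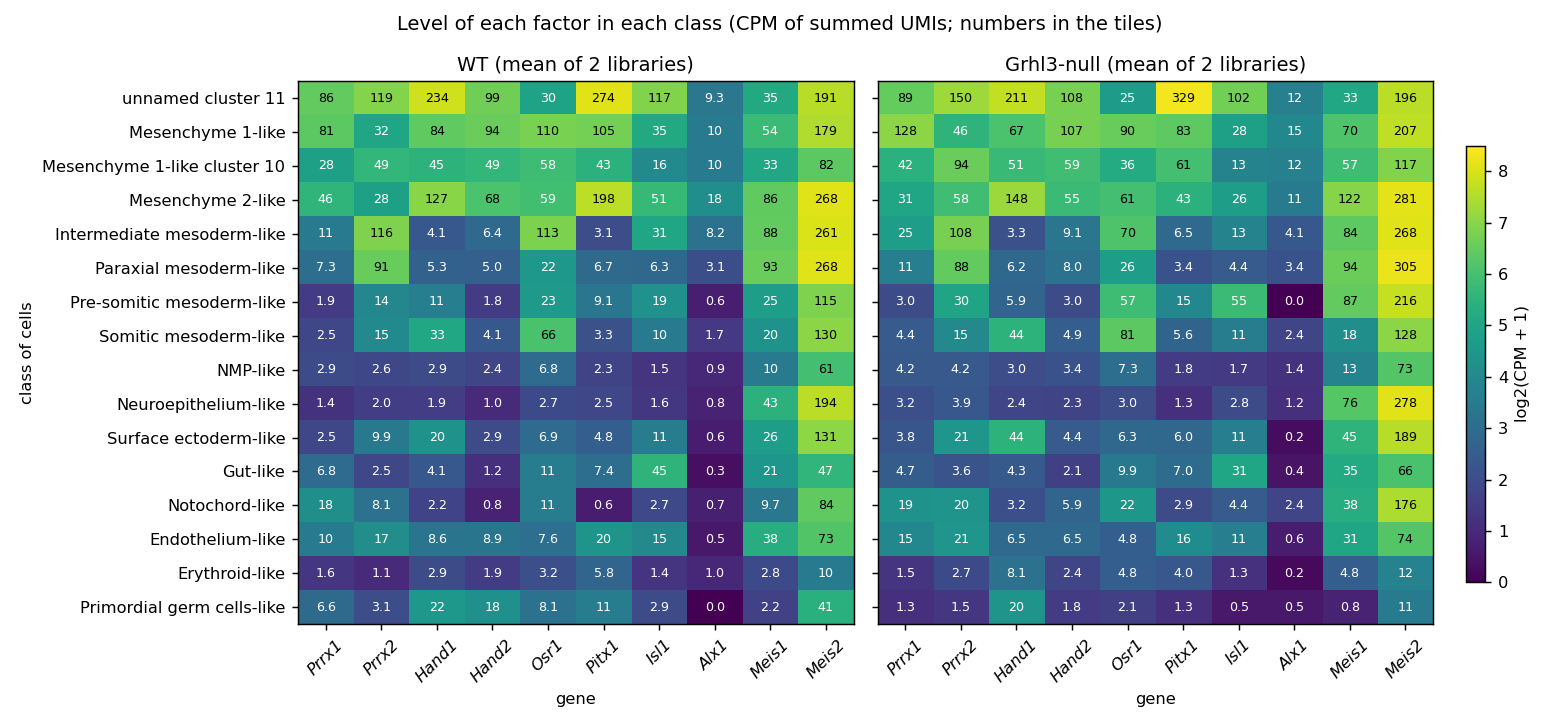
Mean CPM of each gene (columns) in the 16 classes (lines) of WT and *Grhl3*-null cells, over 2 libraries, with the colour on a log2(CPM + 1) scale. *Pitx1*, *Hand1* and *Hand2* are highest in mesenchymal classes, whereas *Meis2* is also high in Neuroepithelium-like and Paraxial mesoderm-like.

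Cluster 11 had the highest WT level of 6 genes. *Pitx1* stood there at 274 ± 20.4 CPM (SD, n = 2), ahead of 198 ± 2.92 in Mesenchyme 2-like and 105 ± 10.2 in Mesenchyme 1-like, and the ranges of the libraries in these 3 classes did not overlap. *Isl1*, at 117 ± 9.92 CPM, and *Hand1*, at 234 ± 37.9 CPM, were also highest in cluster 11, again ahead of Mesenchyme 2-like (51.2 ± 1.10 and 127 ± 5.32) without overlap. The class whose leading gene is *Tbx4* was thus the one with the most *Pitx1*, *Isl1* and *Hand1*. *Tbx4* is expressed in limb as well as extraembryonic cells, and these levels do not part them. For *Prrx1* (86.3 ± 11.6 against 80.7 ± 3.02) and *Hand2* (98.9 ± 12.6 against 93.7 ± 1.11), cluster 11 did not differ from Mesenchyme 1-like beyond the spread of the libraries. For *Prrx2* (119 ± 15.6), it did not differ from Intermediate mesoderm-like (116 ± 7.24).

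*Osr1* was highest in Intermediate mesoderm-like, at 113 ± 7.19 CPM, and overlapped with Mesenchyme 1-like, at 109.5 ± 3.78. Somitic mesoderm-like followed at 65.8 ± 0.407. *Alx1*, the scarcest of the 10 in UMIs, was highest in Mesenchyme 2-like, at 17.98 ± 2.00 CPM, and the next 3 classes lay between 9.32 and 10.3 CPM with overlapping ranges. *Meis1* and *Meis2* were highest in Paraxial mesoderm-like, at 92.7 ± 0.840 CPM and 268 ± 2.10 CPM. For *Meis2* this level overlapped with that of Mesenchyme 2-like (268 ± 11.7). Neuroepithelium-like held 43.1 ± 0.442 CPM of *Meis1* and 194 ± 9.52 of *Meis2*, whereas *Prrx1*, *Hand1* and *Hand2* had WT means of 1.37, 1.92 and 1.04 CPM in that class.

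Within single cells the genes were found together to unequal degrees. After each cell was thinned to 7500 UMIs, the share of mesenchymal cells with a UMI of both *Pitx1* and *Isl1* was 1.68 and 1.39 times the product of the single shares in the WT libraries and 1.68 and 1.67 times in the *Grhl3*-null libraries. *Prrx1* and *Hand2*, at 1.39 and 1.42 in WT, were also found together more often than the product. *Hand1* and *Alx1* had the lowest WT ratio of all pairs, 0.517 and 0.425 in WT. *Prrx1* and *Hand1* lay at 0.802 and 0.803. These ratios describe cells of the same libraries that differ in class, and no test was made on them.

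Over all kept cells, each of the 10 genes differed between the genotypes, where the same test called 35.5% of all genes at an edgeR adjusted p under 0.05. *Prrx1* stood at 19.1 and 19.04 CPM in the WT libraries and 30.3 and 30.9 CPM in the *Grhl3*-null libraries, the largest change of the 10, with a log2 fold change of 0.65 ± 0.02 (SE; adjusted p = 2.56e-06, edgeR). *Prrx2*, *Hand1*, *Hand2*, *Alx1*, *Meis1* and *Meis2* were also higher in *Grhl3*-null, by 0.15 to 0.51 on the log2 scale. *Osr1* (-0.14), *Isl1* (-0.22) and *Pitx1* (-0.24) were lower. In a sum over all cells, more cells of a type and more RNA of the gene per cell cannot be told apart. Shares of classes did differ: cluster 11 held 1.40% ± 0.404 of the cells in WT against 3.71% ± 0.275 in *Grhl3*-null (SD, n = 2), and Mesenchyme 1-like 12.8% ± 0.0702 and 16.4% ± 0.558. Weighting the classes of every library by their WT shares of UMIs lowered the log2 ratio of *Prrx1* from 0.68 to 0.45 and that of *Hand2* from 0.35 to 0.14. For *Pitx1* it went from -0.21 to -0.60, and for *Osr1* it turned from -0.11 to 0.0492. The turn of *Osr1* was lost without *Grhl3*-null 2 (-0.0135) and without the pre-somitic class (-0.0341), and without WT 2 the value was 0.0140. That of *Meis1* went from 0.47 to 0.44 with these classes, and to 0.21 with the classes of a finer clustering. With the finer classes *Pitx1* was at -0.30, *Prrx1* at 0.43, *Hand2* at 0.13 and *Osr1* at 0.0386.

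The comparison was then made inside each class, on UMIs summed per class and library, in the 14 classes with at least 20 cells in every library. Of 126 pairs of a gene and a class, 59 passed, 42 of them higher in *Grhl3*-null, against 12.3% of all genes tested in these classes. When the log2 fold change also had to reach 1 in either direction, 12 pairs passed, against 1.4% of all genes.

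In the Mesenchyme 1-like class, with 699 and 650 WT and 814 and 766 *Grhl3*-null cells, all 10 genes passed (10.6% of all genes did). The Prrx genes rose. *Prrx1* stood at 82.8 and 78.5 CPM in the WT libraries and 124 and 131 CPM in the *Grhl3*-null libraries, a log2 fold change of 0.67 ± 0.04 (SE; adjusted p = 8.97e-10, edgeR). *Prrx2* stood at 31.8 and 31.9 CPM in the WT libraries and 44.7 and 46.3 CPM in the *Grhl3*-null libraries, a log2 fold change of 0.52 ± 0.04 (SE; adjusted p = 6.79e-08, edgeR). In both, the libraries of the genotypes did not overlap. *Alx1* rose with them (10.7 and 9.35 against 14.5 and 14.5 CPM; log2 fold change 0.54, edgeR adjusted p = 1.01e-04). The bHLH genes differed in direction: *Hand1* fell from 82.1 and 86.6 to 66.8 and 66.7 CPM (-0.33 ± 0.04 SE, edgeR adjusted p = 9.65e-06), and *Hand2* rose slightly, 92.9 and 94.5 against 109 and 106 CPM (0.20 ± 0.04 SE, edgeR adjusted p = 0.00167). The hindlimb genes fell. *Pitx1* stood at 97.7 and 112 CPM in the WT libraries and 85.8 and 80.5 CPM in the *Grhl3*-null libraries (-0.33 ± 0.05 SE, edgeR adjusted p = 2.22e-04). In male cells alone *Pitx1* fell (-1.23) and in female cells it rose (0.45). *Isl1* stood at 32.2 and 37.3 against 30.2 and 25.2 CPM (-0.31 ± 0.07 SE, edgeR adjusted p = 0.00705), with little room between the genotypes, and the change was not called without WT 2 (log2 fold change -0.20) or without *Grhl3*-null 2 (-0.19). *Osr1* fell by a similar amount, 112 and 107 against 93.9 and 86.5 CPM (-0.27; edgeR adjusted p = 3.92e-04). *Meis1* (0.38) and *Meis2* (0.21) rose. Some of these calls were lost under alternatives. With the 10 genes among the clustering features, *Hand2* (0.14), *Osr1* (-0.13) and *Meis1* (0.30) were not called. After thinning, *Hand2* (0.20), *Osr1* (-0.23), *Isl1* (-0.0695) and *Alx1* (0.52) were not. Neither *Hand2* (-0.0166) nor *Osr1* (-0.0724) was called in male cells. In female cells *Prrx2* (0.12), *Isl1* (-0.0256), *Alx1* (0.29) and *Meis1* (-0.0388) were not called.

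The low-depth cluster 10 of the same name showed a part of this pattern. There *Prrx2* (53.1 and 44.3 against 97.5 and 90.5 CPM; log2 fold change 0.96), *Prrx1* (30.9 and 24.2 against 39.7 and 44.3 CPM; 0.62), *Meis1* (0.82) and *Meis2* (0.53) rose and *Osr1* (59.02 and 56.04 against 28.6 and 44.3 CPM; -0.64) fell. The other 5 genes did not pass there.

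Finer clustering parted the Mesenchyme 1-like cells as well, and the split was not the same in the genotypes. The larger cluster, led by *Foxf1*, *Hoxd1* and *Fgf10*, held 592 and 572 WT and 615 and 565 *Grhl3*-null cells, and one led by *Lhx1*, *Twist1* and *Grem1* held 154 and 125 against 274 and 274. These clusters were chosen after the values were seen, and no test was made on their levels. *Prrx1* was higher in *Grhl3*-null without overlap in both, 65.7 and 63.3 against 84.6 and 84.96 CPM in the *Foxf1* cluster and 113 and 113 against 174 and 187 CPM in the *Lhx1* cluster. *Prrx2* was lower in the *Foxf1* cluster, 21.6 and 23.8 against 18.6 and 18.4 CPM, and higher in the *Lhx1* cluster, 61.7 and 68.2 against 97.6 and 92.5 CPM, so its direction in the whole class was not that of the larger cluster. In the *Foxf1* cluster *Prrx2* was 23.03 and 26.2 against 14.98 and 14.8 CPM in female cells and 20.2 and 19.999 against 22.2 and 23.1 CPM in male cells, and over the whole class it was not called in female cells (0.12).

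*Hand1* differed little within the clusters, 105 and 105 against 103 and 101 CPM without overlap in the *Foxf1* cluster and 15.6 and 12.6 against 11.4 and 16.2 CPM with overlap in the *Lhx1* cluster, where its level was low and which held more *Grhl3*-null cells. In male cells of the *Foxf1* cluster it stood at 105 and 99.99 against 109 and 109 CPM. What part of the lower level of *Hand1* in the class goes with the split of its cells was not tested. *Osr1* was 117 and 116 against 114 and 111 CPM in the *Foxf1* cluster and 144 and 117 against 91.2 and 74.1 CPM in the *Lhx1* cluster. *Pitx1* was 105 and 121 against 102 and 99.2 CPM in the first and, with overlap, 6.75 and 5.40 against 4.88 and 6.68 CPM in the other. *Isl1* and *Meis2* overlapped in the *Foxf1* cluster, and *Hand2*, *Alx1* and *Meis1* were higher in *Grhl3*-null there without overlap. In the *Lhx1* cluster *Meis1* was lower without overlap, 138 and 141 against 130 and 136 CPM, and *Alx1* overlapped. *Hand2* and *Meis2* were higher and *Isl1* was lower in *Grhl3*-null in the *Lhx1* cluster without overlap. *Meis1* was much lower in the *Foxf1* cluster, 28.6 and 27.1 against 31.7 and 31.8 CPM. What part of the class changes of *Meis1* and *Alx1* goes with the split was not tested.

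**Figure D2:**
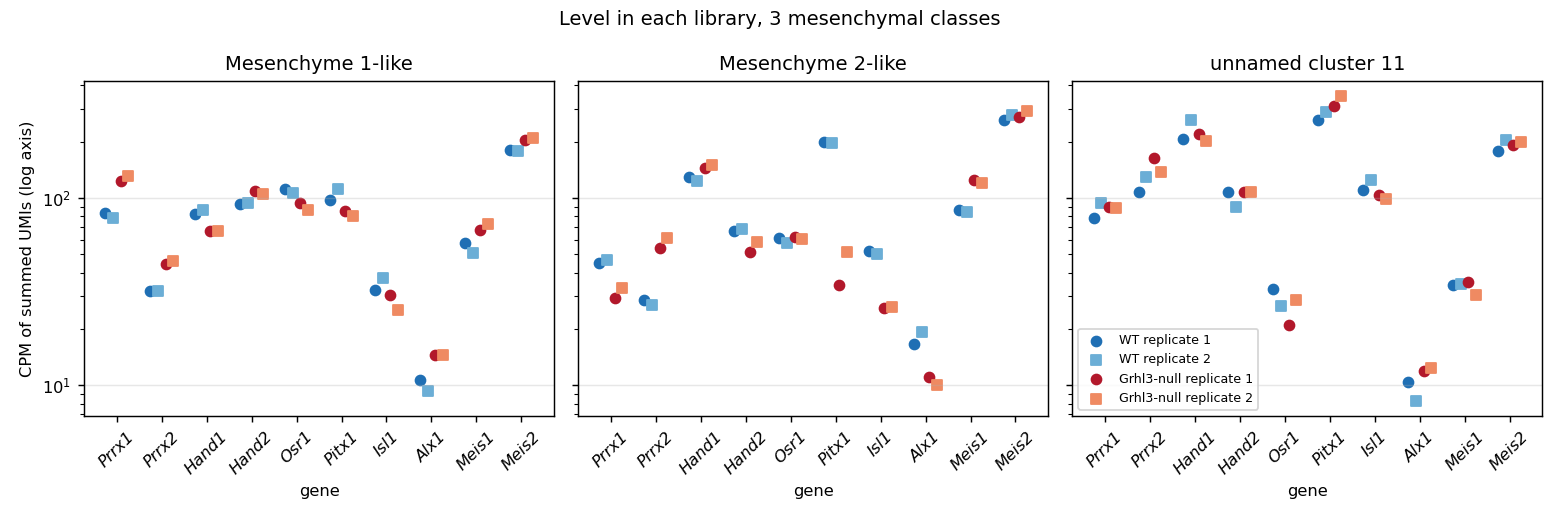
CPM of the 10 genes on a log axis in Mesenchyme 1-like, Mesenchyme 2-like and cluster 11, 1 point per library with WT in blue and *Grhl3*-null in red. *Pitx1* in Mesenchyme 2-like lies at 34.3 and 51.7 CPM in the *Grhl3*-null libraries, below both WT points, and *Prrx1* in Mesenchyme 1-like lies above both WT points.

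The Mesenchyme 2-like class, with *Col3a1* and *Nkx2-3* as leading genes, also held the *Hoxd11* cells given below, most of them WT. In this class 8 of the 10 genes passed (21.2% of all genes did) and the directions were mixed. Its cells were 346 and 351 female of 423 and 439 in WT and 243 and 257 male of 350 and 381 in *Grhl3*-null, so the genotypes also differed in the mix of sexes here. *Pitx1* had the largest change among the 59 calls in classes: 200.3 and 196 CPM in the WT libraries and 34.3 and 51.7 CPM in the *Grhl3*-null libraries, a log2 fold change of -2.19 ± 0.10 (SE; adjusted p = 7.33e-10, edgeR). *Isl1* fell with it, 51.98 and 50.4 against 25.7 and 26.2 CPM (-0.98 ± 0.06 SE, edgeR adjusted p = 1.70e-08), though it was not called in male cells alone (-0.0807), and so did *Prrx1*, 44.9 and 46.99 against 29.2 and 33.1 CPM (-0.56 ± 0.07 SE, edgeR adjusted p = 1.96e-05). The libraries of the genotypes did not overlap in any of these. *Prrx2* went the other way, 28.6 and 26.8 against 54.1 and 61.5 CPM (1.07 ± 0.07 SE, edgeR adjusted p = 2.81e-08). *Hand1* rose and *Hand2* fell, 0.23 and -0.30 on the log2 scale, in each case the opposite of the Mesenchyme 1-like class, a difference between classes that was not tested. Without WT 2 neither was called (0.18 and -0.28). *Alx1* fell (16.6 and 19.4 against 11.1 and 10.1 CPM; -0.77), *Meis1* rose (86.8 and 84.7 against 125 and 119.7 CPM; 0.51), and *Osr1* and *Meis2* did not pass (0.04 and 0.07).

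The loss of *Pitx1* UMIs in Mesenchyme 2-like was seen in the number of cells as well. After thinning to 7500 UMIs per cell, 63.1% and 66.7% of WT cells had a UMI of *Pitx1*, and 14.00% (95% exact Clopper-Pearson interval 10.5 to 18.1) and 17.6% (13.9 to 21.8) of *Grhl3*-null cells. Unthinned, the shares were 80.9%, 82.9%, 28% and 32.3%. In Neuroepithelium-like, taken as background from free RNA, thinned shares lay between 0.630% and 1.93%, at median depths of 35207 to 35182 UMIs in WT 1 and *Grhl3*-null 1 against 31031 and 33901 in Mesenchyme 2-like. The intervals cover counting error only. In Mesenchyme 1-like, the thinned shares of *Pitx1* were 31.6% and 35.7% against 30.3% and 29.2%.

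Finer clustering split the Mesenchyme 2-like cells in a way that touches this result. A cluster led by *Hoxd11*, *Hoxc10*, *Hoxd10*, *Rspo1* and *Des* held 176 and 172 WT cells but 9 and 11 *Grhl3*-null cells. *Pitx1* stood at 297 and 299 CPM in its WT cells, and *Isl1* at 74.6 and 71.7 CPM. Every cell of it with a called sex was female in WT: 169 and 169 cells. The leading genes *Hoxd11*, *Hoxc10*, *Hoxd10* and *Rspo1* of this cluster are on the study's Caudal mesoderm list, a name that no class took. The paper describes a significant loss of caudal mesoderm, among other mesoderm populations, in *Grhl3*-null embryos. Whether the cells of this cluster were of that population was not tested. The cluster led by *Col3a1*, *Nkx2-3* and *Hlx*, with 252 and 268 WT and 347 and 374 *Grhl3*-null cells, allowed a comparison without those cells. There *Pitx1* stood at 132 and 128 CPM in WT and 35.5 and 49.2 CPM in *Grhl3*-null, still without overlap. *Prrx2* was at 29.9 and 30.3 against 54.3 and 62.1 CPM, also without overlap. *Isl1* was 35.9 and 36.8 against 28.4 and 27.3 CPM, a smaller difference than in the whole class. The direction of *Prrx1* and *Hand1* was not that of the whole class: *Prrx1* was 23.9 and 23.2 against 27.3 and 31.1 CPM, and *Hand1* 205 and 181 against 149.7 and 155 CPM. *Alx1* overlapped between the genotypes (9.96, 11.2, 10.3 and 9.46 CPM), as did *Hand2*.

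**Figure D3:**
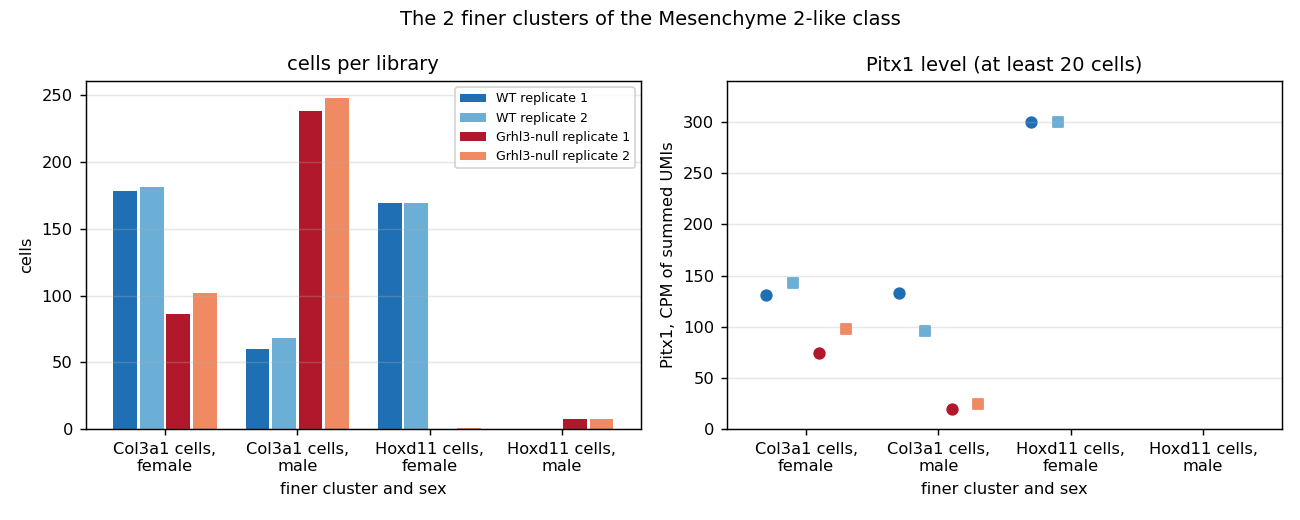
Cells per library (bars, left) and CPM of *Pitx1* (points, right, for at least 20 cells) in the *Col3a1* and *Hoxd11* clusters of Mesenchyme 2-like, by sex, with WT in blue and *Grhl3*-null in red. The *Hoxd11* cells are WT and female with few exceptions, and in the *Col3a1* cells *Pitx1* is lower in both *Grhl3*-null libraries in either sex.

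Outside these classes, fewer of the genes passed in the mesenchyme and several passed elsewhere. In cluster 11, with 92 and 57 WT and 189 and 168 *Grhl3*-null cells, 2 of 10 passed (4.04% of all genes did), *Pitx1* (259.9 and 289 against 308 and 349.7 CPM; log2 fold change 0.28) and *Prrx2* (108 and 130.1 against 163 and 138 CPM; 0.37). Neither was called by DESeq2, after thinning, with log-normalised clustering (0.17 and 0.22) or with the 10 genes among the clustering features (0.0071 and 0.19). Nor was either called when WT 1 was left out (0.21 and 0.24), *Pitx1* was lost without *Grhl3*-null 2 (0.20) and *Prrx2* without *Grhl3*-null 1 (0.24). In Intermediate mesoderm-like, 3 of 9 passed (2.15%): *Osr1* fell (118 and 108 against 68.5 and 71.4 CPM; -0.66), *Isl1* fell (32.3 and 28.8 against 14.6 and 11.6 CPM; -1.17) and *Prrx1* rose (9.03 and 12.4 against 22.4 and 28.4 CPM; 1.26). Without WT 1, *Prrx1* (1.05) and *Isl1* (-1.09) were not called, and DESeq2 called none of the 3. With log-normalised clustering *Osr1* (-0.17) and *Isl1* (-0.50) were not called, and with the 10 genes among the features *Osr1* (-0.27) and *Prrx1* (0.38) were not. The cells of this class were 71 and 64 female of 77 and 70 in WT and 37 and 34 male of 49 and 42 in *Grhl3*-null, so sex, embryo and genotype cannot be told apart there.

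The *Meis* genes rose in ectodermal, endodermal and axial classes. In Neuroepithelium-like, *Meis1* stood at 43.4 and 42.8 CPM in the WT libraries and 76.04 and 76.8 CPM in the *Grhl3*-null libraries (0.80 ± 0.04 SE, edgeR adjusted p = 2.00e-09) and *Meis2* at 187 and 200.5 against 267 and 289 CPM (0.49). Here too most WT cells were female (434 and 377) and most *Grhl3*-null cells male (418 and 467), and within a sex *Meis1* changed by 0.58 in male cells and by 0.23, not called, in female cells. *Meis2* was called in female (0.49) and not in male cells (0.12), where it stood at 244 and 295 against 277 and 292 CPM with overlap. In Notochord-like, *Meis1* stood at 7.17 and 12.2 against 41.6 and 35.2 CPM (1.92 ± 0.24 SE, edgeR adjusted p = 1.51e-05) and *Meis2* at 76.7 and 91.4 against 187 and 166 CPM (1.05). That class had 19 and 18 male WT cells, too few for a comparison by sex. In Surface ectoderm / neural plate border-like, *Meis1* (26.4 and 26.2 against 46.4 and 43.5 CPM; 0.73) and *Meis2* (132 and 130.2 against 194 and 185 CPM; 0.49) rose, although neither was called in female cells alone (-0.13 and 0.0238). Both *Meis* genes rose in Gut-like (0.70 and 0.47), and neither was among the calls, given below, that held in both sexes. In Paraxial mesoderm-like, the class of their highest level, *Meis2* rose by 0.16 and *Meis1* did not pass (-0.00230). The genes that passed numbered 6 of 10 in Neuroepithelium-like (23.2% of all genes), 4 of 9 in Surface ectoderm-like (13.7%), 4 of 9 in Gut-like (19.3%), 3 of 5 in Notochord-like (3.53%), 6 of 10 in Paraxial mesoderm-like (21%) and 4 of 10 in Somitic mesoderm-like (15.4%).

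In the surface ectoderm-like class, where *Grhl3* itself is expressed, *Hand1* and *Prrx2* rose as well. *Hand1* stood at 17.8 and 21.5 CPM in the WT libraries and 37.3 and 51.5 CPM in the *Grhl3*-null libraries (1.13 ± 0.13 SE, edgeR adjusted p = 7.95e-06), and *Prrx2* at 8.98 and 10.9 CPM in the WT libraries and 21.9 and 19.9 CPM in the *Grhl3*-null libraries (1.04 ± 0.12 SE, edgeR adjusted p = 1.51e-05). The *Grhl3*-null libraries were above the WT libraries in both. *Isl1* fell in Gut-like (43.6 and 45.9 against 31.9 and 29.8 CPM; -0.57). In Neuroepithelium-like, *Prrx1* (1.62 and 1.12 against 3.18 and 3.27 CPM) and *Hand2* (1.11 and 0.975 against 2.16 and 2.50 CPM) passed at levels of a few CPM, and the part of free RNA in these levels was not tested. *Pitx1* passed there at 3.33 and 1.66 against 1.02 and 1.53 CPM, and it was not called without WT 1 (-0.40) or without *Grhl3*-null 1 (-0.74).

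To read the mesenchyme by marker genes rather than by cluster, its 5795 cells were divided by genes outside the 10. Cells with a UMI of *Tbx4*, a hindlimb and allantois gene, came first, then cells with *Nkx2-3* or *Hlx*, genes of splanchnic mesenchyme. Then came cells with at least 2 UMIs of *Foxf1*, and the remaining cells. No position was measured, and the domain of a cell also depends on its depth. These marker genes themselves differed between the genotypes, as given below: *Foxf1* was lower in *Grhl3*-null in Mesenchyme 1-like, and *Nkx2-3* and *Tbx4* in Mesenchyme 2-like. How far this moved cells between domains was not tested. Of 40 pairs of a gene and a domain, 23 passed: 7 of 10 in the *Foxf1* domain (14.4% of all genes did), 4 of 10 in the *Nkx2-3* or *Hlx* domain (7.05%), 3 of 10 in the *Tbx4* domain (5.06%) and 9 of 10 in the remaining cells (14.5%). *Prrx1* rose most in the remaining cells, which have no or 1 UMI of *Foxf1*: 51.9 and 57.6 CPM in the WT libraries and 122 and 135 CPM in the *Grhl3*-null libraries (1.23 ± 0.07 SE, edgeR adjusted p = 4.07e-08). It rose in the *Foxf1* domain too, 81.2 and 77.4 against 120.3 and 117 CPM (0.59), and did not pass in the *Nkx2-3* or *Hlx* domain (37.97 and 36.5 against 35.9 and 39.6 CPM). *Hand1* fell and *Hand2* rose in the remaining cells (-0.99 and 0.79).

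*Pitx1* fell in the *Nkx2-3* or *Hlx* domain, 142 and 153 CPM in the WT libraries and 77.3 and 75.9 CPM in the *Grhl3*-null libraries (-0.93 ± 0.05 SE, edgeR adjusted p = 2.37e-08), and in the *Foxf1* domain, 127 and 129 against 75.6 and 83.2 CPM (-0.68). In the *Tbx4* domain it rose, 266 and 258 against 294 and 311 CPM (0.21 ± 0.05 SE, edgeR adjusted p = 0.0274). This call did not hold in both sexes. In a finer cluster led by *Tbx4*, *Pitx1* was 240 and 190 against 318 and 370 CPM in female cells. In its male cells the genotypes overlapped, at 307 and 370 against 281 and 328 CPM. The *Tbx4* domain was also the domain with the most *Pitx1* in both genotypes. *Osr1* was lower in *Grhl3*-null and passed in 3 domains (the *Foxf1* domain -0.24, the *Tbx4* domain -0.43 and the remaining cells -0.37), and *Isl1* in 3 (the *Foxf1* domain -0.64, the *Nkx2-3* or *Hlx* domain -0.32 and the remaining cells -0.58). *Prrx2* rose in all 4, from 0.32 in the remaining cells to 0.99 in the *Nkx2-3* or *Hlx* domain. *Tbx4* is expressed in limb as well as extraembryonic cells, and this division does not part them.

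**Figure D4:**
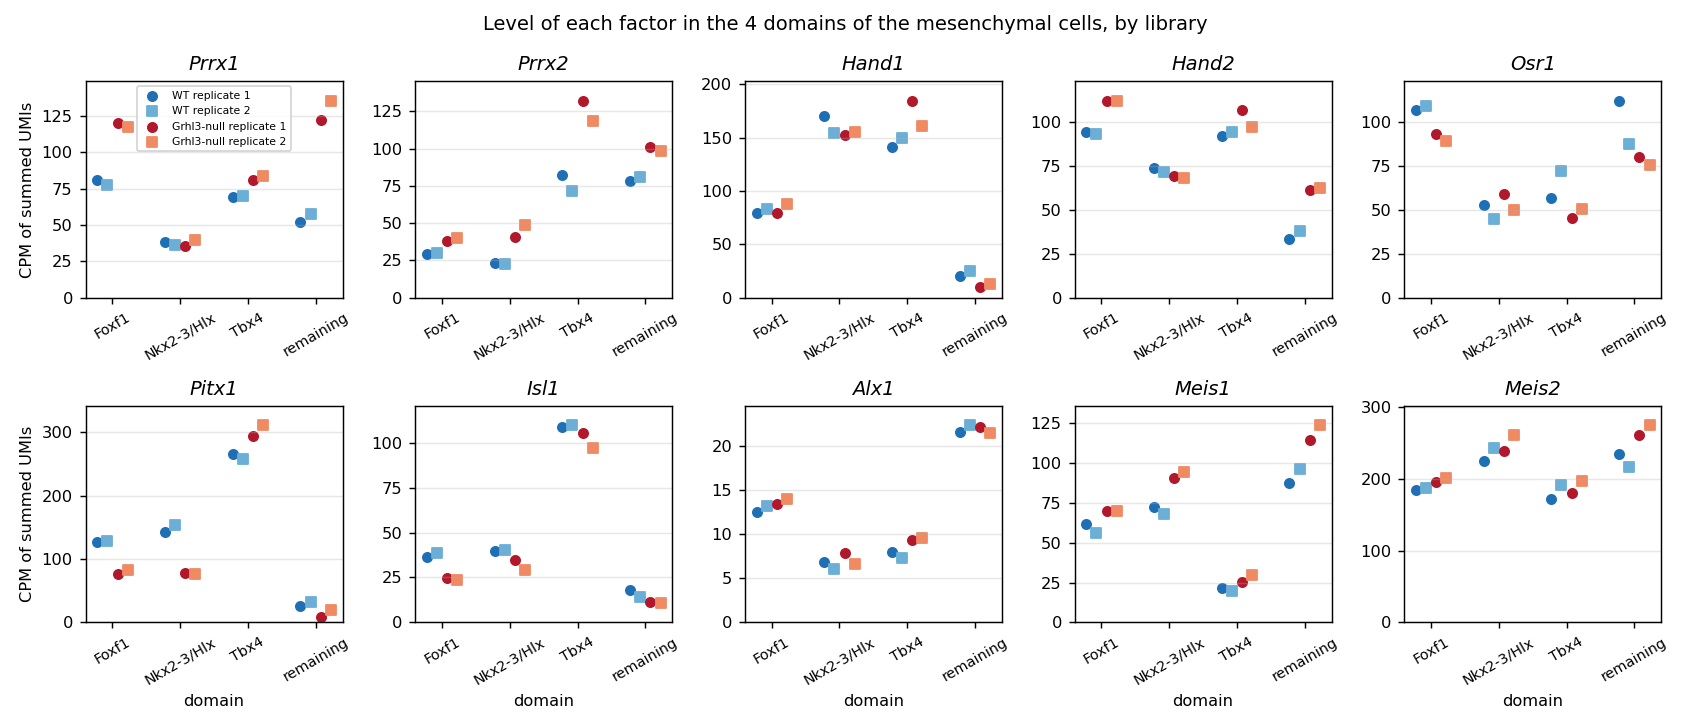
CPM of each gene in the 4 domains of the mesenchymal cells, 1 panel per gene and 1 point per library with WT in blue and *Grhl3*-null in red. *Prrx1* is above WT in the *Foxf1* and remaining cells, and *Pitx1* is below WT in the *Nkx2-3* or *Hlx* cells and above it in the *Tbx4* cells.

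The sexes, as different embryos within each pool, gave another reading of each comparison. Over all cells, 7 of the 10 genes were called in both sexes with opposite signs, as were 7.41% of all genes tested. *Pitx1* stood at 45.6 and 47.6 against 19.6 and 19.8 CPM in male cells and at 33.8 and 33.4 against 54.1 and 56.5 CPM in female cells, a fall in male (-1.25) and a rise in female cells (0.70). *Hand1* was 47.4 and 42.9 against 32.7 and 32.9 CPM in male cells and 27.7 and 27.1 against 52.3 and 52.1 CPM in female cells. *Prrx2* was the gene called alike in both sexes over all cells, 0.90 in male and 0.21 in female cells on the log2 scale. *Prrx1* rose in female cells (1.28) and did not pass in male cells (0.06). The values over all cells above are averages over male and female cells that did not move alike.

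Inside classes, 91 pairs of a gene and a class were tested in both sexes and in all cells, and 47 of them were called in all cells. Of these 47, 32 had the same sign in both sexes and 15 had opposite signs, close to the 30.5% of all calls in these fits that did. In 8 the call held in both sexes in 1 direction, as it did in 9.08% of all calls. *Pitx1* in Mesenchyme 2-like was one: 126 and 99.8 against 20.6 and 32.1 CPM in male cells (log2 fold change -2.09, edgeR adjusted p = 7.76e-13) and 221 and 223 against 67.3 and 94.1 CPM in female cells (-1.41, edgeR adjusted p = 3.69e-10). *Prrx1* in Mesenchyme 1-like was another, 81.5 and 80.4 against 119.6 and 132 CPM in male cells (0.63) and 85.3 and 84.4 against 131 and 137 CPM in female cells (0.66). In each of these 4 sets the genotypes did not overlap. The *Hoxd11* cluster of Mesenchyme 2-like, high in *Pitx1*, held 169 and 169 female WT cells and 0 and 1 female *Grhl3*-null cells. In female cells of the *Col3a1* cluster, *Pitx1* was 131 and 142 against 74.4 and 97.9 CPM, a smaller difference than in the whole class. Among the 8 were also *Prrx2* in Mesenchyme 2-like (0.87 in male and 0.79 in female cells) and *Prrx2* and *Hand1* in Surface ectoderm-like (1.16 and 1.12 for *Prrx2*, 0.70 and 1.73 for *Hand1*). The rest were *Hand1* in Mesenchyme 1-like (-0.42 and -0.22, with the split into finer clusters given above), *Hand1* in Somitic mesoderm-like (0.55 and 0.55) and *Meis2* in Mesenchyme 1-like (0.22 and 0.25). In male cells *Meis2* was 155 and 169 against 147 and 155 CPM in the *Foxf1* cluster, not the direction of the class. It was 271 and 264 against 311 and 283 CPM in the *Lhx1* cluster.

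**Figure D5:**
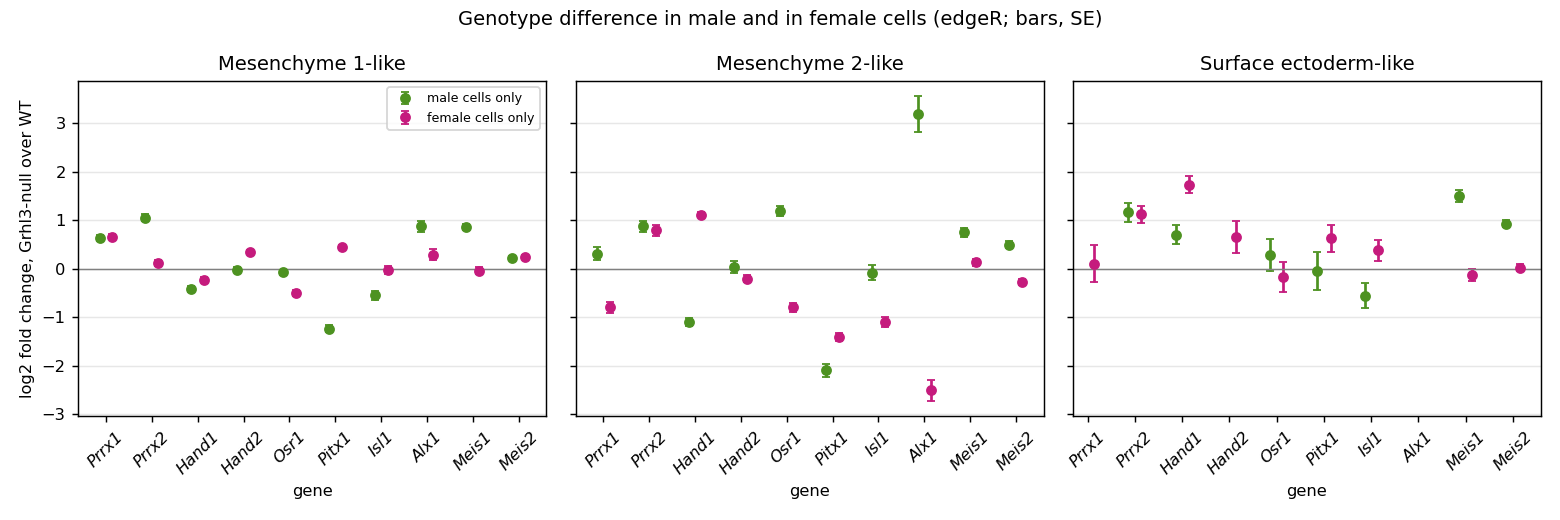
Log2 fold change of *Grhl3*-null over WT in male (green) and female (pink) cells for each gene in Mesenchyme 1-like, Mesenchyme 2-like and Surface ectoderm-like, from edgeR, with bars for the SE. In Mesenchyme 2-like, *Pitx1* lies below 0 in both sexes, at -2.09 and -1.41, and *Alx1* lies at 3.19 in male and -2.51 in female cells.

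Other pairs were called in both sexes with opposite signs, 6 in the classes (2.5% of all pairs of a gene and a class were). *Alx1* in Mesenchyme 2-like stood at 1.09 and 1.87 against 14.1 and 13.1 CPM in male and 20.7 and 24.4 against 3.48 and 4.23 CPM in female cells, and the interaction of genotype and sex was 5.70 ± 0.40 (SE; adjusted p = 2.35e-11, edgeR), in a class where the interaction passed for 22.4% of all genes. Male cells were thus below female cells in WT and above them in *Grhl3*-null. The male WT values are low and rest on 56 and 66 cells, so the size of this interaction is uncertain. *Hand1* and *Osr1* in the same class also crossed: *Hand1* was 299 and 229.5 against 120.1 and 127 CPM in male and 90.2 and 94.5 against 197 and 198 CPM in female cells, and *Osr1* 32.7 and 30.7 against 73.2 and 71.2 CPM and 68.8 and 65.2 against 36.02 and 39.5 CPM. Female WT cells of this class include 169 and 169 of the *Hoxd11* cluster, against 0 and 1 in *Grhl3*-null. In those WT cells *Hand1* stood at 25.1 and 30.2 CPM and *Alx1* at 26.8 and 31.2 CPM. In female cells of the *Col3a1* cluster *Hand1* was 159.9 and 159.4 against 197 and 199.9 CPM, a smaller difference than in the whole class. There *Alx1* was 14.3 and 16.98 against 3.30 and 4.15 CPM, and *Osr1* 61.5 and 57.8 against 36.3 and 39.6 CPM. *Pitx1* crossed in Mesenchyme 1-like, 118 and 139.9 against 59.98 and 49.2 CPM in male and 77.7 and 82.5 against 109.7 and 108 CPM in female cells (interaction -1.68 ± 0.10 (SE; adjusted p = 3.93e-10, edgeR); 10.8% of all genes passed). The remaining 2 were *Meis2* in Mesenchyme 2-like and *Isl1* in cluster 11.

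The interaction was tested for each gene in the class of its highest WT level. It passed for 8 of 9: for *Prrx1*, *Prrx2*, *Hand1*, *Hand2*, *Pitx1* and *Isl1* in cluster 11 (8.06% of all genes passed there), for *Alx1* in Mesenchyme 2-like, and for *Meis1* in Paraxial mesoderm-like (19%), but not for *Meis2* in the last (-0.07 ± 0.08 SE, edgeR adjusted p = 0.6). *Osr1* could not be tested, since its class had too few male WT and female *Grhl3*-null cells. In Surface ectoderm-like, where 10.4% of all genes passed, the interaction of *Meis1* was 1.63 ± 0.17 (SE; adjusted p = 4.38e-07, edgeR): *Meis1* was 23.3 and 20.8 against 61.98 and 61.9 CPM in male and 26.3 and 26.9 against 26.1 and 24.6 CPM in female cells. The change was called in male cells (1.504) and not in female cells (-0.13). Whether such differences follow sex or single embryos cannot be told apart in these pools.

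In the domains, 6 of 23 calls held in both sexes with 1 sign (9.59% of all calls there did): *Pitx1*, *Isl1* and *Osr1* lower and *Prrx1* higher in the *Foxf1* domain, and *Prrx1* higher and *Osr1* lower in the remaining cells. *Prrx1* in the remaining cells stood at 0.65 in male and 1.56 in female cells on the log2 scale. Another 7 of the 40 pairs were called with opposite signs in the sexes (1.43% of all pairs), and all 7 lay in the *Nkx2-3* or *Hlx* domain. There *Pitx1* was 153 and 163 against 38.05 and 37.99 CPM in male cells (-2.07) and 138 and 147 against 131 and 129 CPM in female cells (-0.11, not called).

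Genes that act with the 10 were read from lists of partners and neighbours. Their counts stand beside the 10.6% of all genes called in Mesenchyme 1-like and the 21.2% called in Mesenchyme 2-like, and 1 call in a list of 5 or 6 genes is near those shares. The list counts of Mesenchyme 1-like include cells of the cluster led by *Lhx1*, *Twist1* and *Grem1*. That cluster held 154 and 125 WT and 274 and 274 *Grhl3*-null cells, and its part in the list counts was not tested. Of the limb field list, 2 of 11 tested genes were higher and 1 lower in Mesenchyme 1-like. *Tbx5*, the forelimb T-box gene, was at 1.63 and 1.57 against 4.84 and 6.44 CPM, log2 fold change 1.82 ± 0.17 (SE; adjusted p = 2.63e-07), *Grem1*, a BMP antagonist of the limb bud, at 13.9 and 11.96 against 19.7 and 14.4 CPM, log2 fold change 0.42 ± 0.11 (SE; adjusted p = 0.0152), and *Sall4* at 250.4 and 276 against 202 and 207 CPM, log2 fold change -0.36 ± 0.04 (SE; adjusted p = 5.35e-06), all by edgeR. In Mesenchyme 2-like, 0 were higher and 5 of 9 lower, with a list median of -0.73 against 0.01 over all genes tested there. The list counts of this class include the *Hoxd11* cluster, with 176 and 172 WT but 9 and 11 *Grhl3*-null cells. What part of them goes with those cells was not tested. *Etv4*, an ETS gene downstream of FGF signals, was at 23.4 and 23.8 against 9.70 and 10.2 CPM, log2 fold change -1.24 ± 0.09 (SE; adjusted p = 2.14e-07). *Tbx4*, the hindlimb T-box gene, was at 1.11 and 0.699 against 0.241 and 0.280 CPM, log2 fold change -1.75 ± 0.54 (SE; adjusted p = 0.0298), near 1 CPM or below in this class.

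Lists of partners of the proteins held 4 to 6 tested genes each, too few to set a share of calls against that of all genes. Of 6 TALE genes, which bind DNA with the Meis proteins, 1 was higher and 0 lower in Mesenchyme 1-like, and 3 were higher and 1 lower in Mesenchyme 2-like. Of 5 bHLH partners of the Hand proteins, 1 was higher in Mesenchyme 1-like: *Twist1*, a mesenchyme gene whose protein pairs with Hand2, at 76.2 and 73.2 against 132 and 124 CPM, log2 fold change 0.79 ± 0.04 (SE; adjusted p = 1.30e-10). *Twist1* is a leading gene of the *Lhx1* cluster, which held more *Grhl3*-null cells, and the part of that split in its change was not tested. In Mesenchyme 2-like *Tcf4* was higher (0.16) and *Twist2* lower (-0.49). Of the LIM partners, 1 was higher and 1 lower of 5 in Mesenchyme 1-like, and 1 higher and 2 lower of 4 in Mesenchyme 2-like.

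Of the paralogues of the 10 genes, 0 of 4 were higher and 2 lower in Mesenchyme 1-like, and 2 of 6 higher and 1 lower in Mesenchyme 2-like. *Meis3* was one of those lower in Mesenchyme 1-like (-0.40). Of the lateral plate and visceral mesoderm list, 4 of 13 were higher and 3 lower in Mesenchyme 1-like, with *Foxf1* at 207 and 226 against 180.2 and 178 CPM, log2 fold change -0.26 ± 0.04 (SE; adjusted p = 1.74e-04). In Mesenchyme 2-like, 6 of 13 were higher and 2 lower. *Gata4*, a GATA gene of splanchnic and cardiac mesoderm, was at 1.96 and 1.53 against 9.22 and 6.64 CPM, log2 fold change 2.17 ± 0.23 (SE; adjusted p = 7.40e-06), and *Nkx2-3*, a gene of gut mesenchyme, at 38.2 and 49.6 against 23.9 and 28.5 CPM, log2 fold change -0.74 ± 0.11 (SE; adjusted p = 1.48e-04).

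Lists of other cell types were counted in the same fits, where 10.6% (Mesenchyme 1-like) and 21.2% (Mesenchyme 2-like) of all genes were called. The intermediate mesoderm list had 3 higher and 0 lower of 6 in Mesenchyme 1-like, among them *Pax8* and *Pax2* (0.91 and 0.62), and 1 higher and 2 lower of 3 in Mesenchyme 2-like, with *Lhx1* at 1.58. The part of the *Lhx1* cluster, which held more *Grhl3*-null cells, in the Mesenchyme 1-like calls was not tested. The allantois and extraembryonic list had 1 higher and 2 lower of 6 in Mesenchyme 1-like, and 3 higher and 4 lower of 7 in Mesenchyme 2-like. In the latter class *Hoxd13* was at 4.50 and 2.93 against 0.241 and 0.350 CPM, log2 fold change -3.59 ± 0.42 (SE; adjusted p = 1.63e-05, edgeR) and *Hoxa13* at -3.21. The part of the *Hoxd11* cluster, nearly all WT cells, in these values was not tested. The cardiac list had 0 calls of 4 in Mesenchyme 1-like and 3 higher of 3 in Mesenchyme 2-like, with a summed level of 9.78 and 8.58 against 20.1 and 19.1 CPM. The endothelium list had 2 higher and 0 lower in each class, and the haemoglobins 1 higher and 1 lower in Mesenchyme 1-like and 0 calls in Mesenchyme 2-like.

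The visceral endoderm list had 4 higher and 0 lower of 8 in Mesenchyme 1-like and 4 higher and 0 lower of 6 in Mesenchyme 2-like. Its 8 genes summed to 9.29 and 11.9 CPM in WT and 15.4 and 17.05 CPM in *Grhl3*-null in Mesenchyme 1-like, to 7.76 and 9.35 against 14.7 and 16.6 CPM in Mesenchyme 2-like, and to 50.1 and 51.1 against 126 and 134 CPM over all cells. None of the 8 was at 0 in these classes. The list was higher in *Grhl3*-null in each of them, and its part in the changes of the 10 genes was not tested. In Surface ectoderm-like, the haemoglobins summed to 284 CPM in WT 1 and to 26.9, 31.3 and 34.1 CPM in the other libraries, and the calls of *Hand1*, *Prrx2*, *Meis1* and *Meis2* in that class held without WT 1.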

How the data were processed

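ScRNA-seq of the caudal part of E8.5 embryos was analysed in 4 libraries, grouped by the genotype and replicate number in their labels. The authors aligned 3′ reads of a 10X Genomics kit to mm10 with Cell Ranger (matrix header 3.0.0) and deposited raw UMI counts per gene and cell. Counts were used as deposited, and 0 columns of values were left out. Both libraries of a genotype were counted as separate. A chi-square statistic of their summed counts was 8.20 (WT) and 14.4 (*Grhl3*-null) per degree of freedom, where UMIs drawn independently would give 1. UMIs of a cell are not independent, so it cannot show spread beyond the drawing of different cells from 1 pool. Both libraries come from 1 pool, and p-values may measure technical spread only.

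Cells were filtered as in the study and clustered in R 4.3.3 by sctransform 0.4.2 and Seurat 5.3.0 (3000 variable features less the 10 genes, 30 components, 20 neighbours, Louvain resolution 0.4). A cluster was named by its 30 leading genes, with at least 3 markers and 1.5 times those of the next list. Scrublet in scanpy 1.11.5 marked at most 0.0627% of a library, so the top 5% of scores were removed in an alternative only. UMIs summed per class and library were tested with edgeR 4.0.16 (TMM, filterByExpr, quasi-likelihood test, Benjamini-Hochberg adjustment over all genes of a fit) at an adjusted p under 0.05, and DESeq2 1.42.0 served as an alternative. Data were simulated for 4 of these fits (all cells, Mesenchyme 1-like, Mesenchyme 2-like, Intermediate mesoderm-like). In each, 200 of 200 genes changed by a log2 fold change of 2 were recovered, with 5 to 8 wrong calls. The changed genes were not taken from those of the lowest counts. Smaller changes and differences between embryos were not simulated. Cells were male with at least 2 Y-linked and at most 2 *Xist* UMIs, and female with at least 3 *Xist* and at most 1 Y-linked UMIs. Positions came from GENCODE, and promoters from RefSeq on GRCm38.p6, the assembly of mm10. Other tools were python 3.11.15, numpy 2.4.6, scipy 1.17.1, pandas 2.3.3 and matplotlib 3.10.9.

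The 10 genes and the lists were chosen with earlier results of these data known. Named beside them were the 2 genes called with the largest rise and the 2 with the largest fall of each list, the 3 genes most like each member across classes, the leading genes of unnamed clusters, and *Grhl3*. The analysis also gave each value without 1 library, by sex, thinned, and with other filters and clusterings. Reads and the study's trajectory results were not analysed here. Some genes that this rule names are not reported here.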

Additional observations from a re-analysis of the deposited data

Results flagged for a closer look

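Dixon's rule for single libraries could not be used with 2 libraries a group. Each value below was picked out because a test of the interaction of genotype and sex passed at an edgeR adjusted p under 0.05, so that the change of the gene in male cells differed from that in female cells. Values are log2 fold changes of male less female cells. The sexes come from different embryos of a pool, and which of the 2 such a difference follows was not tested. In Mesenchyme 1-like, the interaction was above 0 with 0.93 for *Prrx2*, 0.58 for *Alx1*, 0.90 for *Meis1* and 0.43 for *Osr1*, and below 0 with -0.36 for *Hand2*, -1.68 for *Pitx1* and -0.52 for *Isl1*. In Mesenchyme 2-like, the interaction was above 0 with 1.10 for *Prrx1*, 0.77 for *Meis2*, 5.70 for *Alx1*, 0.61 for *Meis1*, 1.01 for *Isl1* and 1.98 for *Osr1*, and below 0 with -2.21 for *Hand1* and -0.68 for *Pitx1*. The *Hoxd11* cluster of this class held 169 and 169 female WT but 0 and 1 female *Grhl3*-null cells, and its part in these values was not tested. In female cells of the *Col3a1* cluster *Prrx1* overlapped between the genotypes, at 22.5 and 20.5 against 22.2 and 33.9 CPM. In Paraxial mesoderm-like, the interaction was below 0 with -0.38 for *Meis1*. In Surface ectoderm / neural plate border-like, the interaction was above 0 with 0.90 for *Meis2* and 1.63 for *Meis1*, and below 0 with -1.04 for *Hand1*. In cluster 11, the interaction was above 0 with 1.07 for *Hand1*, and below 0 with -1.23 for *Prrx1*, -1.09 for *Prrx2*, -0.74 for *Hand2*, -0.78 for *Pitx1* and -0.96 for *Isl1*.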

How the results depend on the processing

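The 10 calls over all cells stayed 10 when any library was left out and with the replicate block, and were 9 or 10 under every alternative run. Of 59 calls in class fits, leaving out 1 library gave 53 to 60. Of 23 calls in domains, it gave 20 to 25. Replicate numbers are only numbers here: deviations of same-numbered libraries correlated with r = 0.0081 over 17168 genes, and with the replicate block there were 63 calls in class fits, 27 in domains and 8 in the interaction, all within 1.5 times. Counts outside that range were 35 with DESeq2 (42 of 140 pairs had no adjusted p), 38 in female cells and 36 in male cells, and 30 after thinning to 7500 UMIs, all in class fits, and 13 in domains after thinning. Fewer cells or UMIs entered the single-sex and thinned fits. Other causes were not tested.

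In male cells alone, the direction turned for *Hand1* -0.47 and *Hand2* -0.40 over all cells, for *Hand2* -0.0166 in Mesenchyme 1-like, for *Prrx1* 0.31, *Hand1* -1.10, *Hand2* 0.0440 and *Alx1* 3.19 in Mesenchyme 2-like, for *Prrx2* -0.12 and *Pitx1* -0.11 in cluster 11, for *Pitx1* 0.21 in Neuroepithelium-like (log2 fold change). In female cells alone, the direction turned for *Osr1* 0.12, *Pitx1* 0.70, *Isl1* 0.35, *Meis1* -0.26 and *Meis2* -0.15 over all cells, for *Pitx1* 0.45 and *Meis1* -0.0388 in Mesenchyme 1-like, for *Osr1* -0.80 and *Meis2* -0.27 in Mesenchyme 2-like, for *Isl1* 0.44 in cluster 11, for *Pitx1* 0.24 in Neuroepithelium-like, for *Meis1* -0.13 in Surface ectoderm / neural plate border-like (log2 fold change). At resolution 0.8, the direction turned for *Osr1* -1.21 in Neuroepithelium-like (log2 fold change). With doublets removed, the direction turned for *Pitx1* 0.19 in Neuroepithelium-like (log2 fold change).

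The composition-standardised log2 ratio moved at resolution 0.8 to 0.17 for *Prrx2*, -0.0905 for *Hand1*, -0.30 for *Pitx1*, 0.21 for *Meis1* and 0.14 for *Meis2*. Without the pre-somitic class, an alternative chosen after seeing the data, it moved to 0.0791 for *Hand1*, -0.40 for *Isl1* and 0.34 for *Meis1*, and with doublets removed to 0.0867 for *Alx1*. With the 10 genes kept among the clustering features, WT levels in the class of the highest level moved to 112 CPM for *Prrx1*, 156 CPM for *Prrx2*, 149 CPM for *Hand1*, 155 CPM for *Osr1*, 341 CPM for *Pitx1* and 166 CPM for *Isl1*. With doublets removed, they moved to 97.8 CPM for *Meis1* and 280.1 CPM for *Meis2*. As counted rather than thinned, the WT shares of cells with a UMI in that class were 76.6% for *Prrx1*, 84.3% for *Prrx2*, 92.5% for *Hand1*, 89.4% for *Hand2*, 65.2% for *Osr1*, 94.4% for *Pitx1*, 75.4% for *Isl1*, 31.4% for *Alx1*, 93.5% for *Meis1* and 99.6% for *Meis2*.

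One pool per genotype, 3 *Grhl3*-null embryos and unequal sexes limit every comparison. The sexes, the embryos and small differences of stage between pools cannot be told apart. Names of classes are rebuilt from the study's own lists, and a low level in a class may be free RNA. Classes such as Notochord-like and Intermediate mesoderm-like rest on 42 to 77 cells a library, so a gene that did not pass there may still differ.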

Other observations

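Across the 16 classes of the WT libraries, each of the 10 genes was set beside 10070 genes with at least 10 CPM in some class, by Pearson's r of log2(CPM + 1). *Hand2* was most like *Gm34030* (r = 0.967) and *Tcf21*, a bHLH gene of visceral mesoderm (0.959). *Pitx1* was most like *Tcf21* as well (0.954), followed by its antisense neighbour *Gm47071* (0.943) and *5033428I22Rik* (0.9402). *Hand1* was most like *Foxf1* (0.917), *Rgs5* (0.917) and *Hand2* (0.887). *Prrx1* was most like *Dubr* (0.943), *5033428I22Rik* (0.901) and *Rab32* (0.897), and *Prrx2* most like *Col26a1* (0.893), *Pgf* (0.868) and *Pbx3* (0.853), so the 2 Prrx genes shared none of these neighbours. *Isl1* was most like *Dlk1* (0.922), *Osr1* most like *Frzb* (0.846), *Alx1* most like *Des* (0.861), *Meis1* most like *Zfp787* (0.932) and *Meis2* most like *Zadh2* (0.934). The classes of a library share its depth, and these values describe 16 points with no test.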
